A study of Mus musculus with 6 samples.

Results

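The 49 genes described here act in mitosis and at the kinetochore, the protein assembly that ties a chromosome to the spindle. They were chosen by name from knowledge of the cell cycle, with earlier results of these data known. Every probe, control spots aside, whose gene name in the scanner files equalled a listed name was taken. This gave 97 of the 56605 probes and 49 of the 37325 genes on the array. RNA came from 3 kinds of culture of C57BL/6J female mouse bone marrow (mice aged 6 to 8 weeks), with 2 arrays each. MDSC (conv.), conventional myeloid-derived suppressor cells, were whole marrow grown for 4 days with 40 ng/mL GM-CSF, a myeloid growth factor. 6G- BM-MDSC were grown in the same way after cells carrying Ly-6G, a neutrophil surface protein, had been removed from the marrow with magnetic beads. DCs, dendritic cells, were grown for 8 days with 20 ng/mL GM-CSF. Thus all cultures received GM-CSF. The DCs differed from both MDSC cultures in time, dose and dish surface as well as in cell type. MDSC were grown in tissue culture-treated dishes and DCs in non-treated ones. Each culture was a mixture of cells that was not sorted before RNA extraction.

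A dividing cell enters mitosis when CDK1, bound to cyclin B, phosphorylates its targets. Kinesin motors and their partners then build the spindle, condensins compact the chromosomes, kinetochores attach them, and the spindle checkpoint holds back the anaphase-promoting complex until every chromosome is attached. Most of these transcripts accumulate in G2 and mitosis, so their level in a culture is widely used as a sign of how many cells are dividing. In the marrow, neutrophil and monocyte precursors divide, whereas mature neutrophils do not.

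All 49 genes were well above background on all 6 arrays, so that no gene was lost to the filter on dim probes. Values are the log2 of the processed intensity minus the 75th percentile of the same array, and a gene is read from its brightest probe. Over these 49 genes, the median gap between the arrays of a group was 0.06 (MDSC (conv.)), 0.07 (6G- BM-MDSC) and 0.12 (DCs). Over all genes it was 0.12, 0.12 and 0.11 in that order. The widest gap among the 49 genes was 0.79, for Smc4 in 6G- BM-MDSC. A limma model over the 6 arrays gave each difference and its p-value, adjusted by Benjamini-Hochberg over 21862 genes, and a gene is said to be called, higher or lower where its adjusted p was under 0.05. The p-values measure only the spread between these samples, since the labels do not say whether replicates were separate cultures or animals. Both MDSC groups lay in row 1 of the slide and DCs in row 2, so a difference from DCs and a difference between rows cannot be told apart. In bulk RNA, fewer dividing cells and less transcript per dividing cell cannot be told apart either.

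The mitotic transcripts stood at close levels in the 3 cultures. Among the 49 genes, 7 were higher in MDSC (conv.) than in DCs and 0 were lower by limma, where 13.4% and 15.8% of all genes were called higher and lower (29.2% either way). Against DCs, 8 of the 49 were higher and 0 lower for 6G- BM-MDSC, with 15% and 17.8% of all genes called (32.8% either way). At an unadjusted p under 0.05, 12 and 8 of the 49 were higher (24.5% and 16.3%), beside 19.4% and 21% of all genes. In the same comparisons 0 and 1 were lower, beside 23% and 24.9%, and 42.4% and 46% of all genes differed either way. The methods' test, unadjusted, gave 8 and 8 higher (14.3% and 16.3% of all genes) and 0 lower (18.1% and 18%). The shares of 14.3% and 16.3% called higher by limma after adjustment were near those of all genes. With normexp background correction, 13 of the 49 (26.5%) were higher in MDSC (conv.), above the 15.1% of all genes under that setting. Between both MDSC groups 0 of the 49 were called by limma, where 3 genes were in all (0.0137%, of which 0.00457% were above and 0.00915% below). With an unadjusted p under 0.05, 3 of the 49 differed between the MDSC groups, 1 higher and 2 lower in 6G- BM-MDSC, where 10.8% of all genes did (4.18% higher and 6.61% lower), and the methods' test, unadjusted, gave 0 higher (3.86% of all genes) and 5 lower (4.3%). The counts against DCs fell when any 1 array was left out, and so did the calls over all genes. Fewer arrays enter such fits, so the fall does not show that the counts rested on particular arrays.

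The differences were small. The median size of a difference was 0.16 between MDSC (conv.) and DCs over the mitotic genes, against 0.27 over all genes. It was 0.10 against 0.29 between 6G- BM-MDSC and DCs, and 0.09 against 0.12 between both MDSC groups. With normexp background correction the contrast narrowed, to 0.17 against 0.20 for MDSC (conv.) and 0.14 against 0.22 for 6G- BM-MDSC, each compared with DCs. No mitotic gene reached a 2-fold difference (1 on the log2 scale) in any comparison, which 10.4% and 11.3% of all genes did against DCs. The 95% interval lay within 2-fold either way for 49 of 49 genes in MDSC (conv.) against DCs, for 48 in 6G- BM-MDSC against DCs, and for 48 between both MDSC groups. The exceptions were Kif11 (0.47 to 1.03) against DCs and Smc4 (-1.20 to 0.16) between the MDSC groups.

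**Figure D1:**
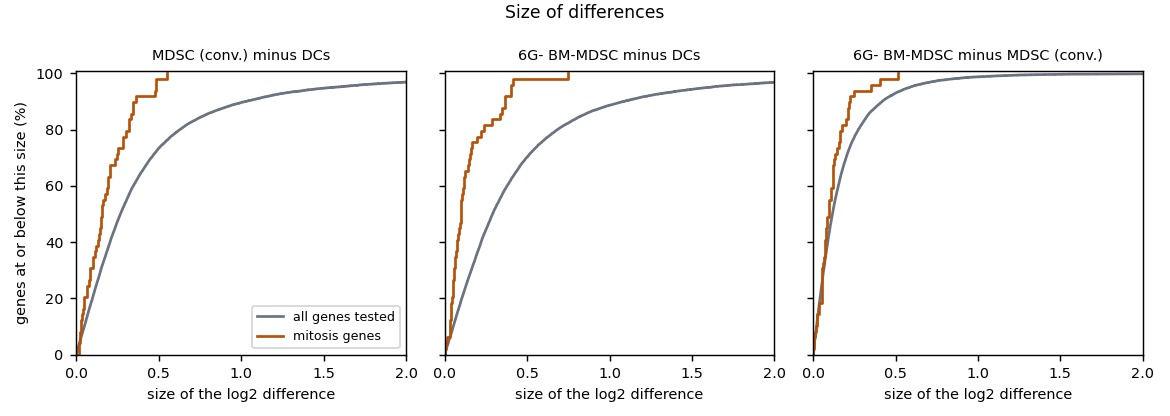
Cumulative share of genes (%, vertical axis) by the size of their log2 difference (horizontal axis, shown up to 2) in each comparison, for the 49 mitosis genes and for all 21862 genes tested. The curve of the mitosis genes ends before 1 in each panel, and 48 of 49 lie under 0.5 in both comparisons with DCs.

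The differences from DCs were more often positive than negative. They were positive for 40 of 49 genes in MDSC (conv.) and for 34 in 6G- BM-MDSC, beside 10201 and 10213 of all 21862 genes. For 6G- BM-MDSC against MDSC (conv.), 12 of the 49 were positive and 37 negative, beside 11126 and 10736 of all genes. The median difference from DCs was 0.15 for MDSC (conv.) and 0.06 for 6G- BM-MDSC, beside -0.03 and -0.04 over all genes. Between both MDSC groups the median was -0.08, beside 0.00. When the arrays were scaled by their median instead, these medians were 0.18, 0.16 and -0.01, beside 0.00, 0.06 and 0.07 over all genes. The median against DCs depended on the DC arrays. It was 0.24 and 0.13 in the MDSC groups without DCs replicate 1, and 0.08 and 0.00 without DCs replicate 2. Both MDSC (conv.) arrays lay above both DC arrays for 29 of the 49 genes and below for 2, where this held for 33.1% and 38% of all genes. For 6G- BM-MDSC the counts were 18 above (33.6% of all genes) and 6 below (39.2%). Both 6G- BM-MDSC arrays lay below both MDSC (conv.) arrays for 26 genes (21.8% of all genes) and above for 2 (22.4%). These counts also depended on the scaling. With median scaling, 33 genes lay above DCs in 6G- BM-MDSC (42.5% of all genes) and 2 below (30.5%), and against MDSC (conv.) 11 lay below (13.8%) and 8 above (32.7%). Both comparisons with DCs use the same DC arrays, so that they are not independent. Summed over the 49 genes on the linear scale, relative to the 75th percentile of the array, the genes reached 559 and 577 for MDSC (conv.), 538 and 535 for 6G- BM-MDSC, and 529 and 488 for DCs.

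**Figure D2:**
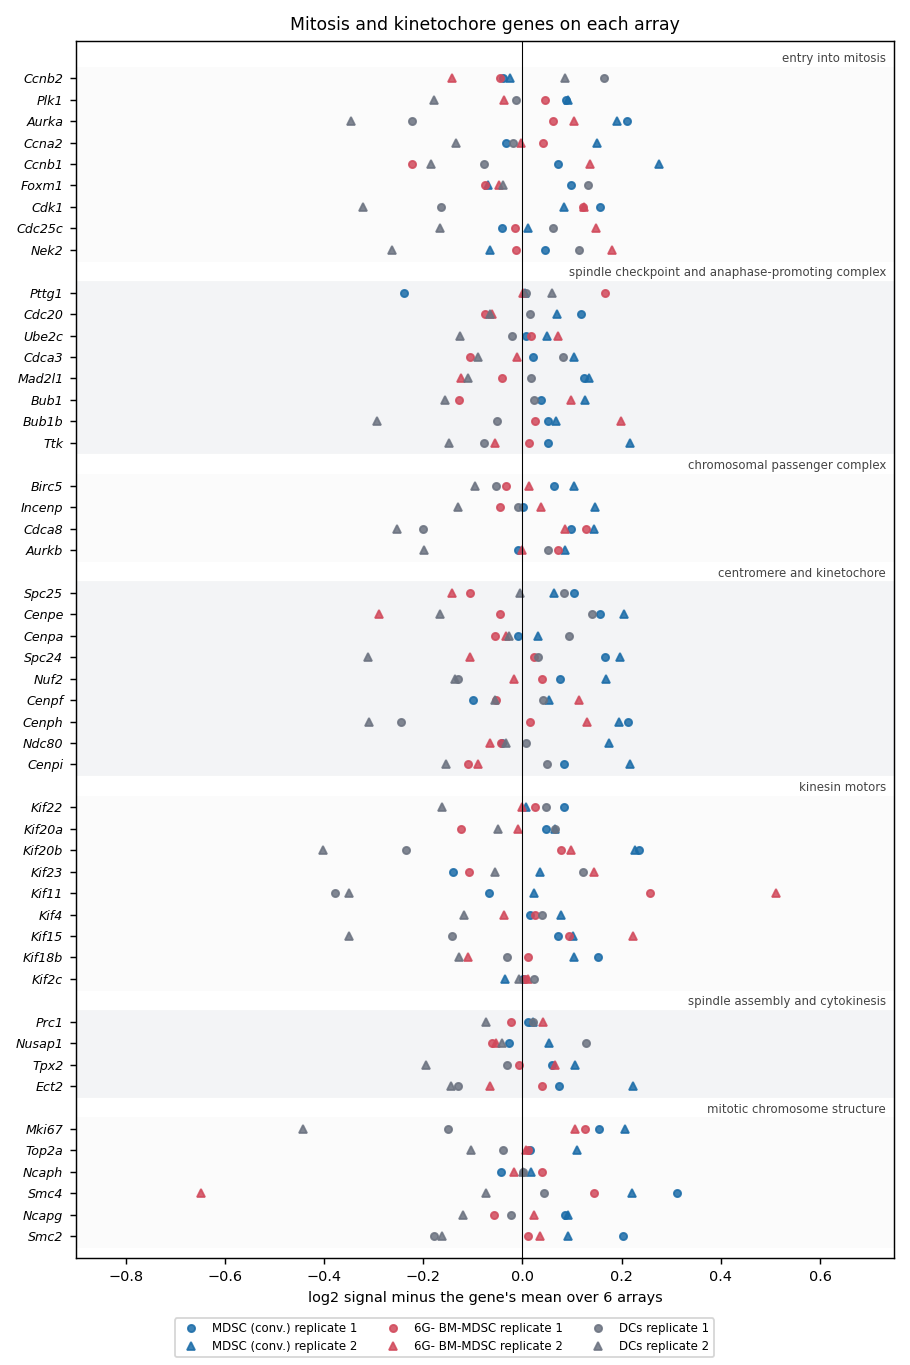
Log2 signal of each mitosis gene on each array, minus the gene's mean over the 6 arrays (horizontal axis), in rows grouped by role; circles are replicate 1 and triangles replicate 2. Kif11 has both 6G- BM-MDSC arrays on the right and Smc4 has 6G- BM-MDSC replicate 2 far to the left.

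Among the 9 genes of entry into mitosis, Cdk1 and Aurka were higher than in DCs in both MDSC groups, and the other 7 were not called. Aurka, the kinase that matures spindle poles, had a log2 signal of 4.60 and 4.58 for MDSC (conv.), 4.45 and 4.50 for 6G- BM-MDSC, and 4.17 and 4.05 for DCs. The 3 groups did not overlap, and the signal was 1.40-fold higher in MDSC (conv.) than in DCs (log2 difference 0.48, SE 0.08, adjusted p = 0.0126) and 1.29-fold higher in 6G- BM-MDSC (0.37, SE 0.08, adjusted p = 0.025). Cdk1, the kinase that drives entry itself, stood at 2.03 and 1.96 in MDSC (conv.), 2.0 on both arrays of 6G- BM-MDSC, and 1.71 and 1.55 in DCs. Its differences from DCs of 0.36 (SE 0.09, adjusted p = 0.0352) and 0.37 (SE 0.09, adjusted p = 0.032) were alike in size, and the interval between both MDSC groups ran from -0.22 to 0.22. Each Cdk1 call was kept in 11 of 19 alternative settings.

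The cyclins that activate CDK1 did not pass the test. Ccnb2, which encodes cyclin B2, had signals of 4.75 and 4.77 for MDSC (conv.), 4.74 and 4.65 for 6G- BM-MDSC, and 4.96 and 4.88 for DCs. Both DC arrays lay above the other 4, opposite to Cdk1, with differences of -0.16 (interval -0.36 to 0.04) and -0.22 (-0.42 to -0.02, adjusted p = 0.0881). Ccnb1, which encodes cyclin B1, stood at 3.21 and 3.42, then 2.92 and 3.28, then 3.07 and 2.96 in the same order of groups, and its difference from DCs had an interval of -0.09 to 0.69 in MDSC (conv.) and of -0.30 to 0.48 in 6G- BM-MDSC. Ccna2, which encodes cyclin A2, differed by 0.14 and 0.10. Plk1, the kinase that helps bipolar spindles to form, had signals of 4.52 and 4.52, then 4.47 and 4.39, then 4.42 and 4.25, and its differences of 0.18 and 0.10 did not pass. For Foxm1, a transcription factor of G2 genes, and Cdc25c, a phosphatase that activates CDK1, the differences from DCs lay between -0.11 and 0.12. Nek2, a centrosomal kinase, spread widely in DCs (-0.31 and -0.68) and overlapped with both MDSC groups (-0.37 and -0.48, then -0.43 and -0.24).

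None of the 8 genes of the spindle checkpoint and the anaphase-promoting complex was called in any comparison. Pttg1 encodes securin, which keeps separase inactive until anaphase. Its signal was 3.95 and 4.20 for MDSC (conv.), 4.36 and 4.19 for 6G- BM-MDSC, and 4.20 and 4.25 for DCs, so that MDSC (conv.) replicate 1 stood low. The difference between both MDSC groups was 0.20, with an interval of -0.10 to 0.50. Cdc20, an activator of the anaphase-promoting complex, had 4.31 and 4.26, then 4.11 and 4.13, then 4.20 and 4.12 in the same order, a spread of 0.19 over all 6 arrays. Mad2l1, a checkpoint protein that binds CDC20, had an unadjusted p under 0.05 between both MDSC groups (difference -0.21, adjusted p = 0.463). The checkpoint kinases Bub1, Bub1b and Ttk had positive differences from DCs in both groups, from 0.05 to 0.29, and the ubiquitin enzyme Ube2c and Cdca3, a factor linked to mitotic entry, lay between -0.05 and 0.12.

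The chromosomal passenger complex corrects faulty attachments and steers the division of the cytoplasm. Of its 4 genes, Cdca8, which encodes borealin, was higher than in DCs in both MDSC groups. It had signals of 4.81 and 4.86 for MDSC (conv.), 4.84 and 4.80 for 6G- BM-MDSC, and 4.51 and 4.46 for DCs. The differences were 0.35 (SE 0.07, adjusted p = 0.0241) and 0.33 (SE 0.07, adjusted p = 0.0249), with no overlap of the arrays. Its partners did not follow by this test. Birc5, which encodes survivin, stood at 5.76 and 5.80, then 5.66 and 5.71, then 5.64 and 5.60, a difference of 0.16 (interval -0.02 to 0.34) and 0.06 (-0.12 to 0.25). The scaffold Incenp had 5.38 and 5.52, then 5.33 and 5.41, then 5.36 and 5.24, and Aurkb, the kinase of the complex, differed from DCs by 0.11 in both groups, with the arrays overlapping.

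In the centromere and kinetochore, Cenph was the member called of 9. CENP-H belongs to the inner complex that stays on centromeres throughout the cell cycle. The Cenph signal was 1.18 and 1.16 for MDSC (conv.), 0.98 and 1.10 for 6G- BM-MDSC, and 0.72 and 0.66 for DCs. Against DCs, it was 1.40-fold higher for MDSC (conv.) (0.48, SE 0.08, adjusted p = 0.0129) and 1.27-fold higher for 6G- BM-MDSC (0.35, SE 0.08, adjusted p = 0.0282). Cenpi, whose product sits beside CENP-H, had 0.27 and 0.41, then 0.08 and 0.10, then 0.24 and 0.04, and did not pass. In the outer NDC80 complex, which grips microtubules, Nuf2 differed from DCs by 0.25 (interval 0.06 to 0.45, adjusted p = 0.0612) in MDSC (conv.), Spc24 by 0.32 (-0.03 to 0.67), Ndc80 by 0.08 and Spc25 by 0.04. Spc25 was 4.57 and 4.53 for MDSC (conv.), 4.36 and 4.32 for 6G- BM-MDSC, and 4.55 and 4.46 for DCs. Thus its 6G- BM-MDSC arrays were the low pair, with a difference of -0.21 from MDSC (conv.) (adjusted p = 0.433). Cenpe, a kinesin of kinetochores, also had its low pair in 6G- BM-MDSC (4.03 and 4.08, then 3.82 and 3.58, then 4.01 and 3.71), although the lower DC array lay between them, and -0.35 did not pass. Cenpa, the centromeric histone, and Cenpf differed from DCs by -0.08 to 0.04.

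The kinesins held both the largest difference and the closest values. Kif11, the motor that pushes spindle poles apart, had signals of 0.48 and 0.57 for MDSC (conv.), 0.80 and 1.06 for 6G- BM-MDSC, and 0.17 and 0.20 for DCs. No groups overlapped, with 6G- BM-MDSC at the top. It was 1.68-fold higher in 6G- BM-MDSC than in DCs (0.75, SE 0.11, adjusted p = 0.00863). This call held in 18 of 19 alternative settings, all but the methods' test, and the difference ranged from 0.39 with normexp background correction to 0.88. The difference of 0.34 from DCs in MDSC (conv.) did not pass (adjusted p = 0.0742), nor did that of 0.41 between both MDSC groups (interval 0.13 to 0.69, adjusted p = 0.349). Kif20b, a motor of cytokinesis, stood at 2.17 and 2.16, then 2.02 and 2.04, then 1.70 and 1.54. It was 1.46-fold higher in MDSC (conv.) than in DCs (0.55, SE 0.09, adjusted p = 0.0113) and 1.32-fold higher in 6G- BM-MDSC (0.40, SE 0.09, adjusted p = 0.0239). Kif15, which works beside KIF11 in the spindle, had 0.07 and 0.10, then 0.09 and 0.22, then -0.15 and -0.35. It passed in 6G- BM-MDSC (0.40, SE 0.10, adjusted p = 0.0389) and not in MDSC (conv.) (0.33, adjusted p = 0.0685). The Kif15 call was kept in 9 of 19 alternative settings.

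The other 6 kinesins were not called. Kif23, a subunit of centralspindlin, had 1.32 and 1.49, then 1.35 and 1.60, then 1.58 and 1.40, so that all groups overlapped. Kif22, which moves chromosome arms, had 3.67 and 3.59, then 3.61 and 3.58, then 3.63 and 3.42. Kif20a, a motor of the spindle midzone, had 2.97 and 2.99, then 2.80 and 2.92, then 2.99 and 2.88, which also overlapped between MDSC groups and DCs. Kif2c, which depolymerises microtubules, spanned -0.48 to -0.42 over all 6 arrays, and its differences from DCs had intervals of -0.20 to 0.15 and -0.18 to 0.18. Kif4 and Kif18b, a chromosome-bound and a plus-end motor, differed from DCs by 0.03 to 0.21.

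Of the 4 genes of spindle assembly and cytokinesis, 0 were called. Prc1, which bundles microtubules at the midzone, had 4.02 and 4.03 for MDSC (conv.), 3.99 and 4.05 for 6G- BM-MDSC, and 4.03 and 3.94 for DCs, and its differences from DCs were 0.04 in both groups (intervals -0.15 to 0.24 and -0.16 to 0.23). Nusap1, another microtubule binder, had 2.64 and 2.72, then 2.61 and 2.62, then 2.80 and 2.63. Tpx2, which activates Aurora A, and Ect2, which starts the cleavage furrow, had differences of 0.19 and 0.29 in MDSC (conv.) with an adjusted p of 0.164 and 0.0691. The groups did not overlap for Tpx2 and Ect2 against DCs in either comparison.

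Among the 6 genes of mitotic chromosome structure, Mki67 was higher in both MDSC groups and Smc2 in MDSC (conv.). Mki67 encodes Ki-67, the surface coat of mitotic chromosomes and a common marker of proliferation. It had signals of 5.47 and 5.52 for MDSC (conv.), 5.44 and 5.42 for 6G- BM-MDSC, and 5.16 and 4.87 for DCs. The lower DC array was 0.29 below the other. The differences were 0.48 (SE 0.12, adjusted p = 0.037) and 0.41 (SE 0.12, adjusted p = 0.0499), the latter just inside the threshold and kept in 8 of 19 alternative settings. Smc2, a condensin core subunit, stood at 3.13 and 3.02, then 2.94 and 2.96, then 2.75 and 2.76. It differed by 0.32 (SE 0.08, adjusted p = 0.0358, a call kept in 9 of 19 alternative settings) and 0.19 (adjusted p = 0.112). Its partner Smc4 had 3.35 and 3.26, then 3.18 and 2.39, then 3.08 and 2.97. The low 6G- BM-MDSC replicate 2 set its difference of -0.24 from DCs and its wide SE of 0.26, and without replicate 1, which leaves that array alone in its group with the spread taken from the other groups, the difference was -0.63 (adjusted p = 0.0301). Top2a, which untangles sister DNA, had 4.19 and 4.28, then 4.19 and 4.18, then 4.14 and 4.07. The condensin subunits Ncapg and Ncaph differed from DCs by -0.01 to 0.16.

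**Figure D3:**
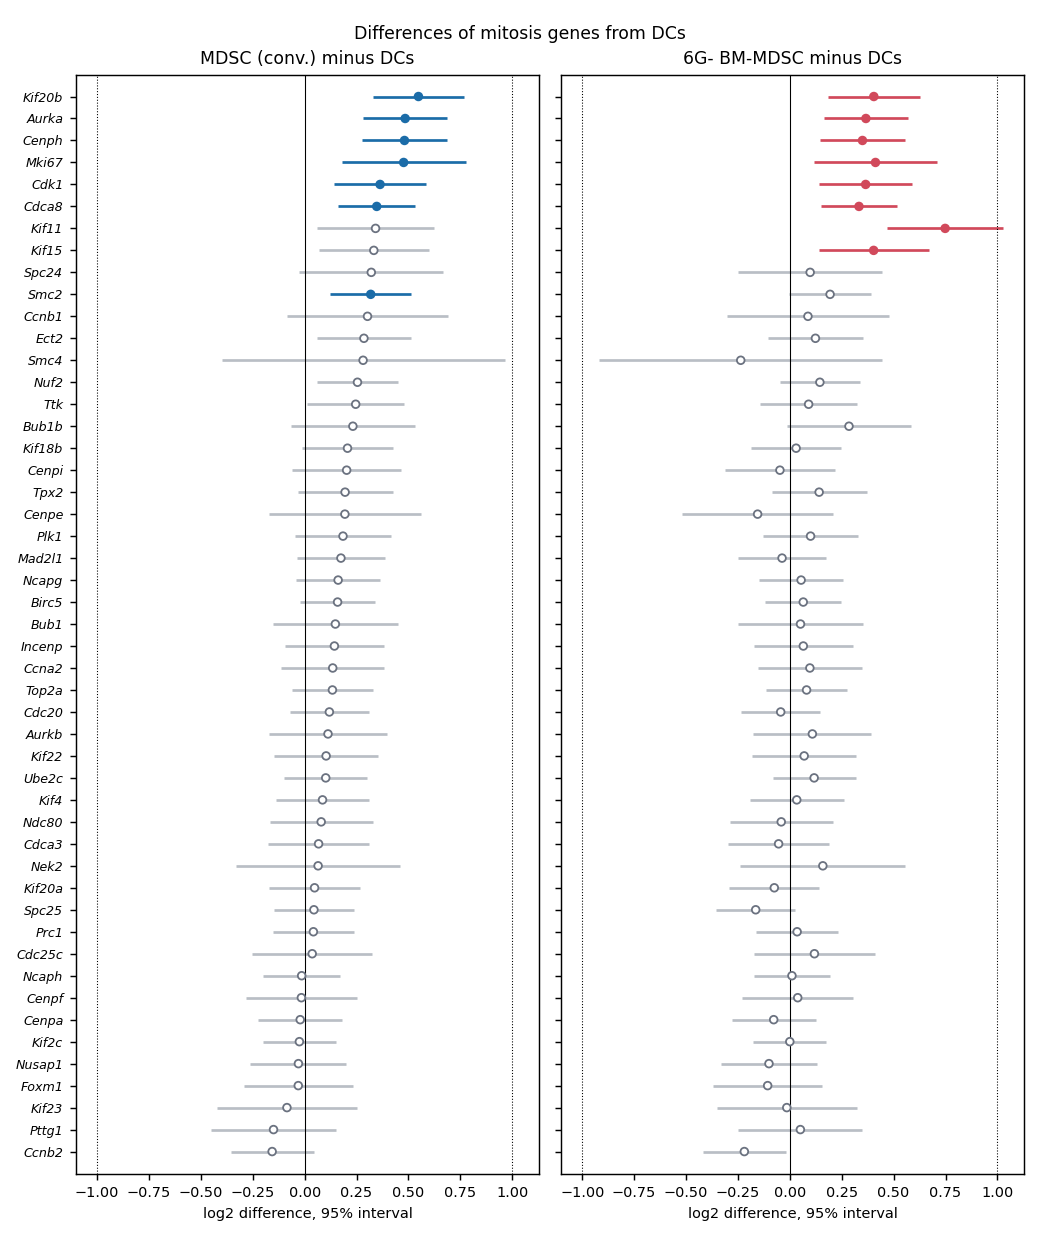
Log2 difference from DCs (horizontal axis) with its 95% interval for each mitosis gene, in MDSC (conv.) on the left and 6G- BM-MDSC on the right; filled points passed an adjusted p of 0.05 and dotted lines mark a 2-fold difference. The 7 and 8 filled points all lie right of 0, and the interval of Kif11 in 6G- BM-MDSC alone reaches past the dotted line.

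Of the 49 genes, 25 had more than 1 tested probe, and single probes did not always tell the same story. The calls of Aurka, Cdk1, Cenph, Kif11 and Mki67 each rest on 1 tested probe. Tested probe by probe, 18 of 91 were higher and 0 lower in MDSC (conv.) than in DCs, where 13.4% and 14.3% of all 33484 probes were. For 6G- BM-MDSC, 11 were higher and 3 lower, where 15% and 16.2% of all probes were. For Ttk, the brightest probe gave 0.25 in MDSC (conv.) and was not called, while 3 dimmer probes gave 0.59, 0.50 and 0.43 and were called. For Ccnb1, a dimmer probe with -0.04 and 0.08 for MDSC (conv.), 0.07 and -0.01 for 6G- BM-MDSC, and -0.45 and -0.44 for DCs was called in both groups (0.47 in each), where the brightest was not. For Smc4, a second probe had 2.58 and 2.64, then 2.51 and 2.43, then 2.18 and 2.12, with no low array, and was called at 0.46 and 0.32, whereas another gave 0.27 and -0.29. For Kif15, the other probes gave 0.19, 0.09 and -0.25 in 6G- BM-MDSC against DCs, beside 0.40 on the brightest. For Cdca8, a probe for a separate Ensembl transcript had -3.76 and -4.13, then -4.73 and -4.62, then -4.03 and -4.45, a difference of -0.43 in 6G- BM-MDSC opposite in sign to the 0.33 of the brightest. When all probes of a gene were averaged, the 6G- BM-MDSC differences of Cdca8 (0.04) and Kif15 (0.11) were no longer called. Of the 3 tested Cdca8 probes, 2 were positive in this comparison. The negative one was dim, at -3.76 to -4.73 over the arrays, beside 4.46 to 4.86 on the brightest.

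The 3 probes that were lower in 6G- BM-MDSC than in DCs were 1 each of Ncapg, Foxm1 and Kif23. That of Ncapg, for an Ensembl transcript, had -0.93 and -0.95 for MDSC (conv.), -1.16 and -1.17 for 6G- BM-MDSC, and -0.84 and -0.92 for DCs (difference -0.28), while the brightest Ncapg probe, with 3.10 and 3.11, then 2.96 and 3.04, then 2.99 and 2.90, gave 0.05. That of Foxm1 gave -0.28 and that of Kif23, for a full-length cDNA, -0.75. A further Kif23 probe gave -1.40 (SE 0.57), which did not pass and rested on 6G- BM-MDSC replicate 1 (-4.41, beside -2.62 on replicate 2). Without that array the difference was -0.50.

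Some probes lie across an exon junction, so that they read spliced RNA: their mm9 coordinates span far more than the 60 bases of the probe. The following are those of the genes called against DCs, for Cdk1 and Cenph the brightest probe of the gene and for Kif15, Kif20b and Smc2 a further probe. The sequences are those of the array files, 5′ to 3′.
Cdk1, chr10:68805423-68807832, minus strand: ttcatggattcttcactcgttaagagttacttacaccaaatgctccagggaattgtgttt
Cenph, chr13:101534182-101536833, minus strand: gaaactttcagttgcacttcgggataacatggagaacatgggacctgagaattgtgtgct
Kif15, chr9:122880853-122884774, plus strand: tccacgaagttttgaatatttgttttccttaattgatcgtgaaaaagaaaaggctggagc
Kif20b, chr19:35017012-35022112, plus strand: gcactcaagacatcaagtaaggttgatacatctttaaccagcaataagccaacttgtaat
Smc2, chr4:52464211-52470154, plus strand: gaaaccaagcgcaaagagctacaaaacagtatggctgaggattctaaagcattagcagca
The coordinates leave gaps of 2350, 2592, 3862, 5041 and 5884 bases in that order, which are intron sequence absent from the probes. The junction probe of Kif20b gave 0.53 for MDSC (conv.) and 0.27 for 6G- BM-MDSC against DCs, that of Smc2 0.55 and 0.25, and that of Kif15 0.50 and 0.19. All were called in MDSC (conv.) and none in 6G- BM-MDSC (adjusted p = 0.0508 for Kif20b), where the brightest probes of Kif20b and Kif15 were called.

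Genes of G2 and mitosis are known to carry CHR elements near their start, to which repressing and activating complexes bind through the cycle, and CCAAT boxes upstream, which bind NF-Y. Both were searched on both strands in the 300 bases from 250 before to 50 after each start in RefSeq (GRCm38.p6). The CHR letters were TTTGAA, its reverse complement TTCAAA, and the palindrome TTCGAA, and the CCAAT letters were CCAAT and ATTGG. A window was found for 40 of the 49 genes (42 windows). A CHR match was in 73.8% of these windows and in 19.2% of all 32851, and a CCAAT match in 76.2% and 37.4%. Windows with both made up 64.3% and 7.52%. A CHR match that began between 60 bases before and 40 after the start was in 66.7% of the windows of the mitosis genes, against 5.66% of all. Matches are letters and not shown to be bound sites.

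**Figure D4:**
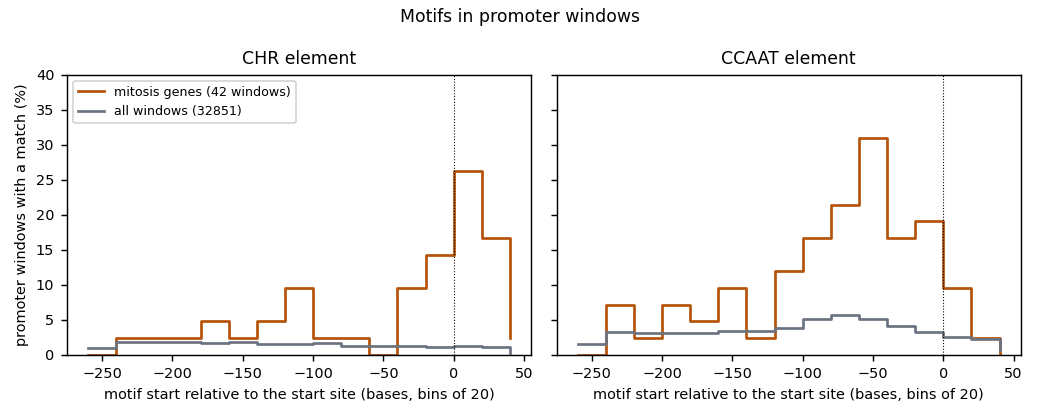
Share of promoter windows (%, vertical axis) with a CHR match (left) or a CCAAT match (right) that begins in each bin of 20 bases, by distance from the start site (horizontal axis, bases), for the 42 windows of mitosis genes and for all 32851 windows. CHR matches of the mitosis genes gather around the start and CCAAT matches in the 100 bases before it.

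Matches were found both in genes called against DCs and in the rest. Of the 9 called genes, all with a window, 8 had a CHR match, 7 a CCAAT match and 6 both. Of the 31 other genes with a window, 21 had CHR, 23 CCAAT and 19 both. The 6 stretches below run from 120 bases before to 30 after the start, on the strand of the gene, with CHR and CCAAT matches in capitals. Kif20b, Kif11, Cdk1 and Cdca8 were called, and Ccnb2 and Bub1, which were not, are shown beside them for their like arrangement.
Kif20b, chr19:34922238-34922387, plus strand: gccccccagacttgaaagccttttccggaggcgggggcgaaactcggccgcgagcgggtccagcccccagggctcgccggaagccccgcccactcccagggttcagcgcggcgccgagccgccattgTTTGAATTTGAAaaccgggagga
Kif11, chr19:37376262-37376411, plus strand: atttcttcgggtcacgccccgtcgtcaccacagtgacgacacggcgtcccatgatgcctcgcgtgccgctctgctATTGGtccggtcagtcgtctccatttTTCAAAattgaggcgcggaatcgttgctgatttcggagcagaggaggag
Cdk1, chr10:69352883-69353032, minus strand: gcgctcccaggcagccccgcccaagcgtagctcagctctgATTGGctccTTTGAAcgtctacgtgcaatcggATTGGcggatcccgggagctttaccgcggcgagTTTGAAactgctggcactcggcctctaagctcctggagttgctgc
Cdca8, chr4:124936888-124937037, minus strand: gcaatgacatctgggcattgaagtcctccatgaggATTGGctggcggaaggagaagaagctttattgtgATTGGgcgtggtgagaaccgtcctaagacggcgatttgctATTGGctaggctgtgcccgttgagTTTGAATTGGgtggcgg
Ccnb2, chr9:70421525-70421674, minus strand: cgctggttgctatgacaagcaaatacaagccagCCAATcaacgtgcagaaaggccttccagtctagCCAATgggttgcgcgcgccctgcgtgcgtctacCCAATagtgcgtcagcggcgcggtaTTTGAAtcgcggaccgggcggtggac
Bub1, chr2:127831830-127831979, minus strand: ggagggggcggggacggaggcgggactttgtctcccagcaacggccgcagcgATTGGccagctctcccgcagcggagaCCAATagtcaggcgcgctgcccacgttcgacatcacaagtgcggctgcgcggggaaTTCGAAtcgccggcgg
In Cdk1, Ccnb2 and Bub1 more than 1 CCAAT box precedes a CHR element close to the start, and in Cdca8 the CHR letters overlap a further CCAAT box by 1 base. Kif20b has a pair of adjoining CHR elements and no CCAAT box in this stretch. Cdk1 (0.36) and Ccnb2 (-0.16) thus share this layout and differ from DCs in opposite directions, the latter without passing.

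Other genes of the pathway were called in both directions. The 106 further genes of the kinetochore, spindle, mitotic kinases and condensins were all tested. In MDSC (conv.), 17 were higher (beside 13.4% of all genes) and 7 lower (15.8%) than in DCs, with a median of 0.14. For 6G- BM-MDSC the counts were 14 (beside 15% of all genes) and 8 (17.8%), with a median of 0.08. The shares higher were thus near those of all genes. Between both MDSC groups 0 of the 106 were called. Depdc1b, a regulator of division and adhesion, was higher in both (0.88 and 0.62), and Numa1, a spindle pole protein, was lower in both (-0.67 and -0.91). Among kinases and regulators, Ube2s, which extends ubiquitin chains for the anaphase-promoting complex, differed by 0.72 and 0.79, and Mybl2, a transcription factor that switches on CHR genes, by 0.67 and 0.60. Cdc25a (0.61 and 0.45) and Cks2 (0.54 and 0.55), which act on CDKs, were also higher in both. Among kinetochore genes, Cenpu (0.55 and 0.41) was higher and Cenpm (-0.39 and -0.47) lower in both, while Hjurp, the chaperone of CENP-A, and Zwilch were higher in MDSC (conv.) (0.43 and 0.42).

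The inhibitors of the cell cycle held several genes that were lower in MDSC. The list held 13 genes for CDK inhibitors, pocket proteins and related brakes. In MDSC (conv.), 6 were lower (beside 15.8% of all genes) and 1 higher (13.4%) than in DCs, with a median of -0.40. For 6G- BM-MDSC, 5 were lower (beside 17.8% of all genes) and 0 higher (15%), with a median of -0.32. Without 1 array, 3 or 4 and 2 to 4 were lower, the methods' test called 0 after adjustment, and the 6G- BM-MDSC median was -0.19 both with normexp and without DCs replicate 2. Cdkn2a, which encodes p16 and ARF, had signals of -2.45 and -3.05 for MDSC (conv.), -2.53 and -2.37 for 6G- BM-MDSC, and -0.74 and -1.08 for DCs. It fell by 1.84 (SE 0.23, adjusted p = 0.00623) and 1.54 (SE 0.23, adjusted p = 0.00953) on the log2 scale, relative to DCs. Cdkn2b, which encodes p15, was -0.01 and -0.07, then 0.57 and 0.25, then 1.05 and 0.99, and was lower by both comparisons (-1.06 and -0.61). Cdkn2c, which encodes p18, stood at 1.56 and 1.59, then 1.51 and 1.64, then 2.46 and 2.37 (-0.84 and -0.85), and Cdkn1a, which encodes p21, at 4.96 and 4.84, then 4.92 and 4.91, then 5.40 and 5.38 (-0.49 and -0.47). In each of these 4 genes both DC arrays lay above all MDSC arrays. Cdkn2d, which encodes p19, was higher in MDSC (conv.) (0.37). No brake was called between both MDSC groups by limma.

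Of 24 genes of G1 and S phase, 5 were higher (beside 13.4% of all genes) and 1 lower (15.8%) in MDSC (conv.) than in DCs. For 6G- BM-MDSC, 3 were higher (beside 15% of all genes) and 1 lower (17.8%). Ccnd1, which encodes cyclin D1, was the lower one, with 3.56 and 3.50 for MDSC (conv.), 3.50 and 3.37 for 6G- BM-MDSC, and 4.78 and 4.65 for DCs (-1.18 and -1.28). E2f3 (0.54 and 0.58), a transcription factor of S phase genes, and Mcm5 (0.46 and 0.52), a subunit of the replicative helicase, were higher in both.

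**Figure D5:**
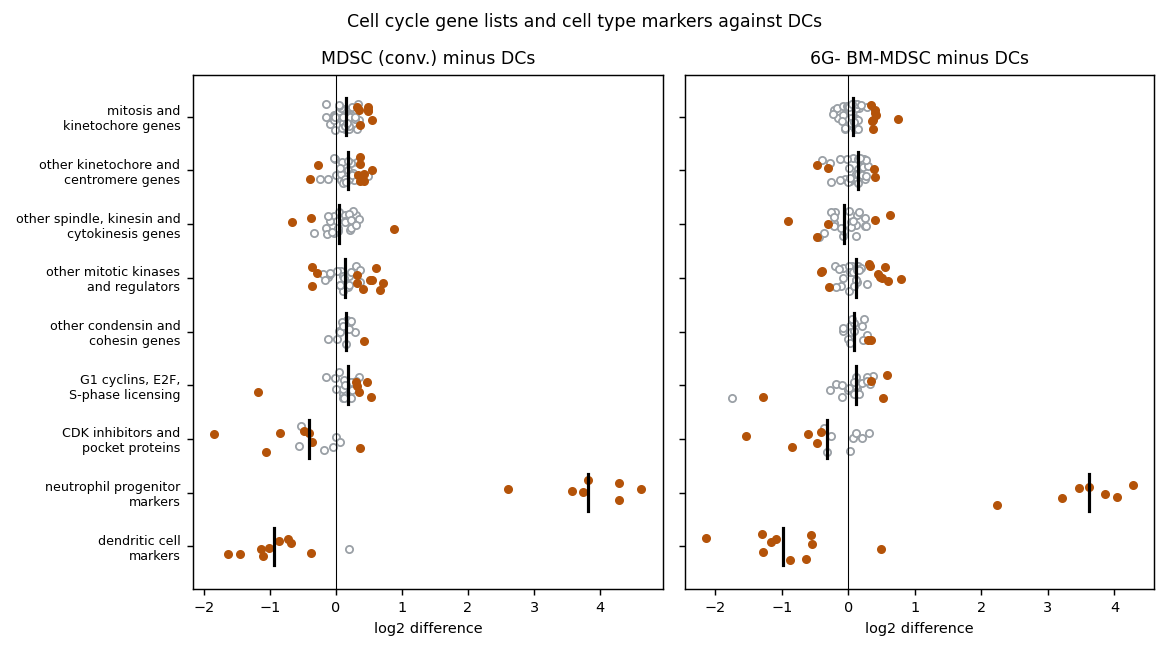
Log2 difference from DCs (horizontal axis) of the mitosis and kinetochore genes, other cell cycle lists and 2 marker lists, in MDSC (conv.) on the left and 6G- BM-MDSC on the right; a point is a gene, filled where the adjusted p was under 0.05, and the bar is the list's median. The mitosis genes lie between -0.24 and 0.75, while neutrophil progenitor markers lie above 2 and most dendritic cell markers below 0.

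Markers of several cell types were called against DCs in both MDSC groups. Of all genes, 13.4% were called higher and 15.8% lower in MDSC (conv.), and 15% and 17.8% in 6G- BM-MDSC. All 7 neutrophil progenitor markers were higher in both MDSC groups (medians 3.81 and 3.62), with a summed linear signal of 456 to 473 (MDSC (conv.)), 376 to 380 (6G- BM-MDSC) and 30.8 to 31.7 (DCs). Of 10 mature neutrophil markers 8 were higher in both MDSC groups. Of 10 dendritic cell markers 9 were lower in both, and the remaining 1 was called higher in 6G- BM-MDSC than in DCs (0.50). The summed signal of the dendritic cell markers was 886 to 954 over the MDSC arrays and 1584 to 1625 in DCs. Macrophage markers were lower for 7 and 6 of 9 genes. The neutrophil progenitor and macrophage genes were well above background on all arrays, those of DCs and of MDSC alike. Basophil and mast cell markers were higher for 5 of 5 genes in both MDSC groups, and of 8 erythroid markers 4 were tested and 2 were higher. The remaining marker lists were called in part or in both directions. Of 4 monocyte markers, 1 was called higher than in DCs for MDSC (conv.) and 2 for 6G- BM-MDSC, with 0 lower. Of 6 stem and progenitor cell markers tested, 3 and 4 were higher in that order, with 1 lower each time. Of 7 lymphoid markers tested, 3 were higher and 2 lower in each comparison. Of 5 megakaryocyte and platelet markers, 4 were higher and 0 lower in each comparison. The part of these cell types in the differences of the mitotic genes was not tested.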

How the data were processed

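Total RNA of 6 samples was hybridised to 1-colour Agilent mouse arrays. Feature Extraction (10.5.1.1 per the submitters' notes, 10.7.3.1 per the file headers) subtracted background and removed trends within each array. The values deposited by the authors are processed intensities on a linear scale, not scaled between arrays, and the deposited value table holds the same intensities, rounded. The median intensity of an array was 45.9 to 55.7, no spot was saturated, and 103 to 146 marked spots per array were left out.

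Control spots were removed (R 4.3.3), replicate spots averaged, and log2 taken minus the 75th percentile of the array (560 to 633 units). Probes well above background on both arrays of a group were kept (33484 of 56605), and the brightest probe stood for a gene (21862 genes, 9 with a missing value, none of them a mitosis gene). Through RefSeq, 32994 probes (58.3%) were matched to a current symbol, which differed from the name in the files for 1535. Groups were compared with limma 3.58.1 on all 6 arrays (3 residual degrees of freedom, prior 1.96), with two-sided tests. The fit was tested on simulated data with planted changes of 2-fold or more. Smaller changes, such as those of the mitosis genes, were not simulated. The number of arrays limits the precision.

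Genes and lists were chosen with earlier results of these data known. By rule, values per array were printed for the 2 genes of highest signal in each role, the 3 largest differences each way in each comparison, and genes whose probes differ in sign where a probe was called, and up to 4 genes were named from other lists. Array values of Cdk1 and Smc2 and of brakes and cyclin D1, and more than 4 genes in some lists, were added after their values were seen. Alternatives were other background corrections, scalings, filters, probe rules, variance models, sample sets, single arrays left out, the replicate number as a block, and the test the methods name for other assays.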

Additional observations from a re-analysis of the deposited data

How the results depend on the processing

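No called difference of a mitosis gene changed sign in 19 alternative settings. No difference reached 2-fold in any of them, with a gene read from its brightest probe or the mean of its probes. A dimmer Kif23 probe alone did pass 2-fold in 6G- BM-MDSC against DCs (-1.40, not called). The counts of calls moved, and single calls were kept in 8 to 18 of the 19 settings. Of the mitosis genes higher in MDSC (conv.) than in DCs (7) and in 6G- BM-MDSC (8), 0 and 0 also differed by 2-fold, and 0 and 0 passed the methods' test after adjustment (8 and 8 at an unadjusted p under 0.05). With only the arrays of the groups compared, 4 and 3 were called. The MDSC (conv.) count rose to 13 with normexp (26.5%, beside 15.1% of all genes) and to 11 with an intensity-dependent prior (22.4%, beside 15.9%), and the 6G- BM-MDSC count fell to 5 when the probes of a gene were averaged. The intensity-dependent prior called 1 gene lower in 6G- BM-MDSC than in DCs (Ccnb2). Over arrays left out in turn, these counts ranged from 0 to 4 (higher, MDSC (conv.)), from 1 to 3 (higher, 6G- BM-MDSC) and from 0 to 1 (lower, 6G- BM-MDSC). Fewer arrays enter these fits, the calls over all genes fell as well, and other causes were not tested.

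For the 106 other genes of the pathway, the 17 higher and 7 lower in MDSC (conv.) became 0 and 0 with a 2-fold threshold, 0 and 0 with the methods' test and 2 to 12 and 0 to 3 with an array left out. The 14 higher and 8 lower in 6G- BM-MDSC became 0 and 0, 0 and 1, and 1 to 8 and 1 to 6. Normexp called 27 higher in each comparison. Fewer were lower with median scaling (3 and 2), and with averaged probes (4) or only the arrays compared (3) in MDSC (conv.), and with only the arrays compared 8 were higher in 6G- BM-MDSC.

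The median difference from DCs was 0.083 to 0.24 in MDSC (conv.) and 0.00 to 0.13 in 6G- BM-MDSC over arrays left out, and 0.16 in the latter with median scaling. Median scaling also changed the split over all genes in 6G- BM-MDSC from 3282 higher and 3889 lower to 3983 and 2712.

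Replicate numbers are shared between groups, but deviations of same-numbered samples correlated at 0.11 (both MDSC groups), 0.12 (MDSC (conv.) and DCs) and 0.04 (6G- BM-MDSC and DCs), so the numbers were not taken to pair the samples. With the replicate number as a block, 5 and 6 mitosis genes were higher than in DCs and 0 lower, and 4 and 5 other genes of the pathway were lower.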
